A study of Mus musculus with 9 samples.

Results

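The ATF4 and CHOP axis is the transcriptional branch of PERK signalling, and 10 of its genes were followed here in cultured mouse podocytes under endoplasmic reticulum (ER) stress. The genes have a known place in the pathway, and they were chosen with earlier results of these data known: the transcription factor genes Atf4, Ddit3 (which encodes CHOP), Atf3 and Atf5, the C/EBP partner genes Cebpb and Cebpg, and the feedback and effector genes Trib3, Ppp1r15a, Chac1 and Sesn2. All 10 were measured, each by 1 probe set that carries a single gene symbol, among 22180 genes in all. No filter on low values was applied, so every member entered the tests.

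Podocytes are the cells whose foot processes form the outer layer of the glomerular filter. The cells had been kept at 37 °C for 11 days to differentiate and were then treated for 16 hours, with 3 arrays per group. The groups were 2.5 µM thapsigargin plus 10 µM forskolin, 2.5 µM thapsigargin alone, and the vehicle DMSO. Thapsigargin blocks the SERCA calcium pump of the ER, and forskolin activates adenylyl cyclase and so raises cAMP. The labels give no genotype, line or passage for the cells, and no group received forskolin without thapsigargin. They name the 3 arrays of a group biological replicates without saying what was separate, so the p-values cover only the spread among the arrays, which may be technical.

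PERK is a kinase of the ER membrane that senses unfolded protein and phosphorylates the translation factor eIF2α. Overall protein synthesis then drops, while the ATF4 messenger is translated more through upstream reading frames in its leader. ATF4 binds DNA together with C/EBP proteins and raises genes of amino acid supply as well as further factors, among them CHOP and ATF3. A feedback follows in which GADD34, the product of Ppp1r15a, brings protein phosphatase 1 to eIF2α. Arrays measure the transcripts and not the phosphorylation or translation steps.

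The promoter sequences of the axis genes are shown first because the genes moved together and because the DNA element that ATF4 and C/EBP proteins share is known. RefSeq windows (build GRCm38.p6) from 250 bases before to 50 bases after an annotated start were given for all 10 genes, with 2 windows for Atf5. 3 patterns of letters were searched on both strands: the C/EBP-ATF composite TGATGNAA, the cAMP response element TGACGTNA, and the ER stress response element known as ERSE. Composite and cAMP response element matches never lay on the same bases in these windows. The composite was found in Atf3, Chac1 and Trib3, that is in 3 of 10 genes (30%), against 4.51% of all 27025 genes with a window. A cAMP response element was found in Atf3 and Ppp1r15a (20% of the 10 genes, against 3.36% of all genes), and ERSE in none of the 10, against 0.137% of all genes.

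The matched stretches are written 5′ to 3′ on the gene's strand, with the match in capitals. They lie at chr1:191183396-191183483 and chr1:191183334-191183383 (minus strand) for Atf3, chr2:119351009-119351096 (plus strand) for Chac1, chr2:152344028-152344057 (minus strand) for Trib3 and chr7:45526269-45526320 (minus strand) for Ppp1r15a. The Trib3 match lies after the annotated start, at bases 15 to 22, and the others before it.
Atf3 composite: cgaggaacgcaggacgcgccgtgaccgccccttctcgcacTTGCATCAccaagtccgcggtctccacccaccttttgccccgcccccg
Chac1 composite: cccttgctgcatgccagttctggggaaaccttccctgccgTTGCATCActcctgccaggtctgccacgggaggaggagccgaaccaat
Trib3 composite: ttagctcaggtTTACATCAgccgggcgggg
Atf3 cAMP response element: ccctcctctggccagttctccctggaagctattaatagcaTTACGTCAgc
Ppp1r15a cAMP response element: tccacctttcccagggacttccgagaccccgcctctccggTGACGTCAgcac
Atf3 and Chac1 hold the same 8 letters, TTGCATCA. A match is a run of letters and not a measured binding site. For Atf4, Ddit3, Atf5, Cebpb, Cebpg and Sesn2 none of the patterns occurred in the windows given.

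The question of the first comparison was how thapsigargin alone changed the axis relative to DMSO. All 10 genes rose, and the arrays of the groups did not overlap for any of them. Trib3 changed most, 14.3-fold, and Cebpb least, 1.51-fold. The test was limma over all genes with Benjamini-Hochberg adjustment, and a gene is called when its adjusted p lies below 0.05. At that threshold 18.2% of all genes were called higher and 16.9% lower. At least 2-fold rises were called for 7 of the 10 genes and for 3.08% of all genes, and groups without overlap were seen for 10 of 10 and for 43.9% of all genes. The median log2 change was 1.98 over the 10 genes and -0.04 over all genes.

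**Figure D1:**
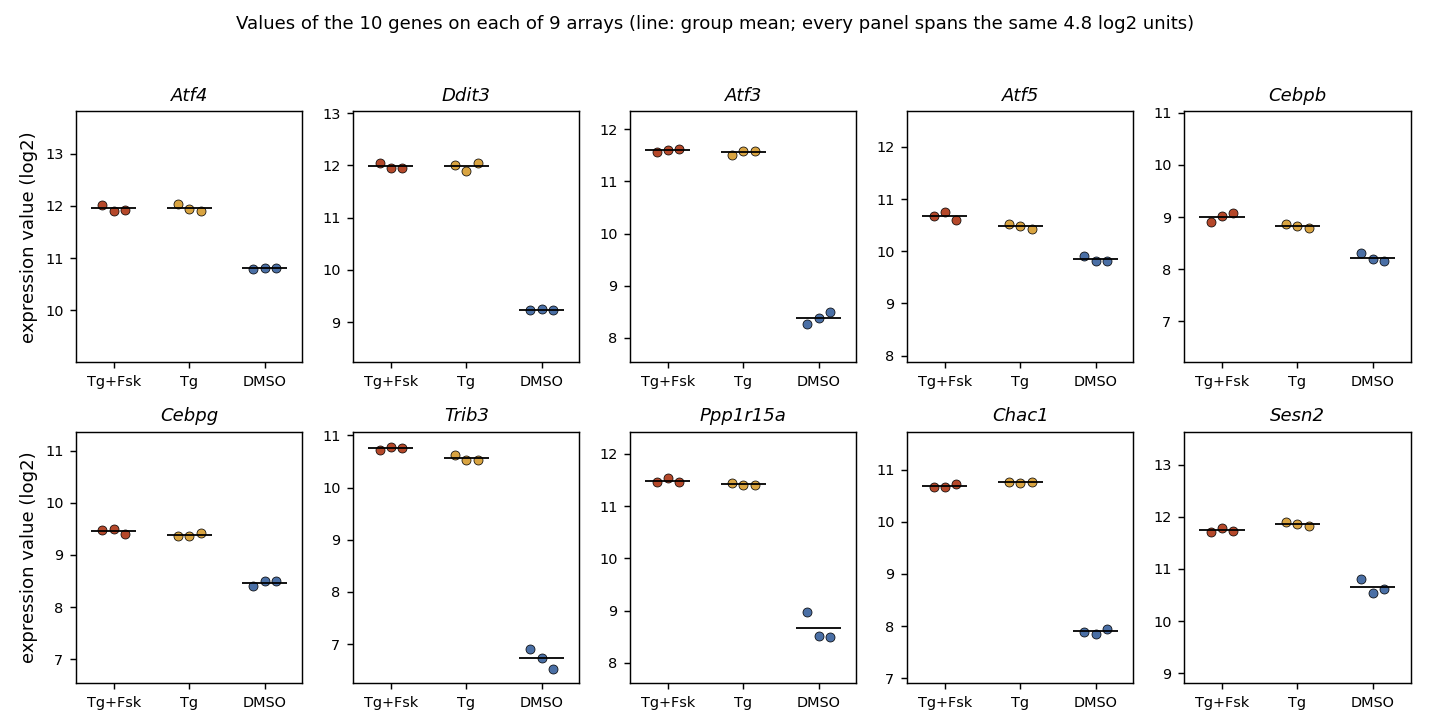
Expression values (log2, vertical axis) of each of the 10 axis genes on the 3 arrays of thapsigargin plus forskolin (Tg+Fsk), thapsigargin (Tg) and DMSO, with a line at each group mean and the same span in every panel. All points of both thapsigargin groups lie above all DMSO points, and the thapsigargin groups differ little from each other.

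Among the regulators, Atf4 itself moved modestly. Its log2 values were 12.01, 11.91 and 11.93 with thapsigargin plus forskolin, 12.03, 11.95 and 11.90 with thapsigargin, and 10.79, 10.80 and 10.82 with DMSO. Both thapsigargin groups lay above DMSO and overlapped each other. The rise over DMSO with thapsigargin was 2.23-fold (log2 change 1.16 ± 0.06 SE, limma adjusted p = 2.47e-07).

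Ddit3, whose product CHOP is a C/EBP-family factor tied to cell death in prolonged ER stress, rose further. Its values were 12.04, 11.96 and 11.95 with thapsigargin plus forskolin, 12.02, 11.89 and 12.04 with thapsigargin, and 9.22, 9.25 and 9.23 with DMSO. The DMSO arrays agreed to within 0.02 (SD, n = 3), and the thapsigargin groups overlapped. With thapsigargin the log2 change was 2.75 ± 0.06, or 6.72-fold (95% interval 6.14 to 7.35).

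Atf3, a stress-induced member of the ATF/CREB family that mostly represses, showed 11.56, 11.60 and 11.61 with thapsigargin plus forskolin, 11.50, 11.58 and 11.58 with thapsigargin, and 8.27, 8.38 and 8.50 with DMSO. It rose 9.02-fold with thapsigargin (3.17 ± 0.07), the 8th largest rise among all genes. Atf5 encodes a factor related to ATF4 with a part in the mitochondrial stress response. It stood at 10.67, 10.75 and 10.59 with thapsigargin plus forskolin, 10.53, 10.49 and 10.42 with thapsigargin, and 9.91, 9.81 and 9.81 with DMSO. Its rise with thapsigargin was 1.56-fold (0.64 ± 0.06), well under that of Atf3, and its 3 groups were fully apart.

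The partner genes rose by less than 2-fold with thapsigargin. Cebpb had 8.91, 9.01 and 9.08 with thapsigargin plus forskolin, 8.86, 8.82 and 8.79 with thapsigargin, and 8.32, 8.19 and 8.17 with DMSO, and its groups did not overlap. Its log2 change with thapsigargin was 0.60 ± 0.06 (limma adjusted p = 5.13e-05). Cebpb messenger gives longer activating and shorter inhibiting proteins, which one probe set does not separate. Cebpg encodes a short C/EBP protein that pairs with ATF4. Cebpg values were 9.48, 9.50 and 9.39 with thapsigargin plus forskolin, 9.37, 9.37 and 9.42 with thapsigargin, and 8.40, 8.51 and 8.50 with DMSO, a 1.89-fold rise with thapsigargin (0.92 ± 0.06).

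The feedback gene Trib3 encodes a pseudokinase that binds ATF4 and CHOP and dampens them. It had 10.71, 10.78 and 10.75 with thapsigargin plus forskolin, 10.62, 10.53 and 10.53 with thapsigargin, and 6.91, 6.73 and 6.53 with DMSO. This was the third largest rise of all genes with thapsigargin (3.83 ± 0.09), and the 3 groups were apart. Ppp1r15a, the GADD34 gene, had 11.47, 11.53 and 11.46 with thapsigargin plus forskolin, 11.45, 11.40 and 11.40 with thapsigargin, and 8.97, 8.50 and 8.50 with DMSO. DMSO replicate 1 lay apart from the other DMSO arrays for this gene, which had the widest error of the 10 (6.76-fold, 2.76 ± 0.11). Without that array the log2 change was 2.91.

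Chac1 encodes an enzyme that degrades glutathione. Its values were 10.67, 10.67 and 10.71 with thapsigargin plus forskolin, 10.76, 10.74 and 10.77 with thapsigargin, and 7.89, 7.86 and 7.95 with DMSO, the tightest of the 10 genes, and it rose 7.25-fold with thapsigargin (2.86 ± 0.05). Sesn2 encodes a sestrin, a leucine-binding inhibitor of the growth kinase complex mTORC1. Sesn2 had 11.72, 11.78 and 11.72 with thapsigargin plus forskolin, 11.90, 11.86 and 11.82 with thapsigargin, and 10.80, 10.54 and 10.62 with DMSO. It rose 2.31-fold with thapsigargin (1.21 ± 0.07), and was the 1 gene besides Chac1 whose combined-treatment arrays all lay below the arrays of thapsigargin alone.

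The rises with thapsigargin were split by size at a log2 change of 2, so the groups were made from these same values. Ddit3, Atf3, Trib3, Ppp1r15a and Chac1 lay between 2.75 and 3.83 on the log2 scale, and only 19 of all genes reached the lower of these values. Atf4, Atf5, Cebpb, Cebpg and Sesn2 lay between 0.60 and 1.21. The 95% intervals of the groups of 5 did not meet, with 2.50 as the lowest bound in the first and 1.37 as the highest in the second. As the split used the same values, this gap is a description and not a test. How a size of change depends on the probes of each set was not tested.

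The second comparison asked whether forskolin altered the axis when added to thapsigargin. None of the 10 genes was called, while 3.7% of all genes were called higher and 4.17% lower. Unadjusted p was below 0.05 for 2 of the 10, Atf5 and Cebpb, and for 19% of all genes. The log2 differences ran from -0.12 for Sesn2 to 0.19 for Atf5, with a median of 0.05, against -0.006 for all genes. For the main regulators they were -0.0074 ± 0.06 for Atf4 (limma adjusted p = 0.97) and 0.00053 ± 0.06 for Ddit3 (limma adjusted p = 0.999), and the sign of both depended on the scaling and the arrays used. The 95% interval of the ratio was 0.912 to 1.08 for Atf4 and 0.915 to 1.09 for Ddit3.

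The standard errors of the 10 differences ran from 0.05 for Chac1 to 0.11 for Ppp1r15a, whose ratio had a 95% interval of 0.876 to 1.26. The lowest bound of any of the 10 ratios was 0.823, for Sesn2 (log2 difference -0.12 ± 0.07), and the highest was 1.31, for Trib3 (0.19 ± 0.09). Atf5 (0.19 ± 0.06, limma adjusted p = 0.108) and Cebpb (0.18 ± 0.06, limma adjusted p = 0.158) had 95% intervals of the log2 difference above 0 before adjustment, from 0.05 to 0.33 and from 0.03 to 0.32. Atf5 passed the threshold with an intensity trend and robust prior in limma (adjusted p = 0.0217) and when only genes above the median level were tested (adjusted p = 0.0428), with the same difference. For 6 of the 10 genes the 2 sets of arrays were fully apart, against 26.1% of all genes. These were Atf5, Cebpb, Trib3 and Ppp1r15a, higher with forskolin on all 3 arrays, and Chac1 and Sesn2, lower on all 3.

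**Figure D2:**
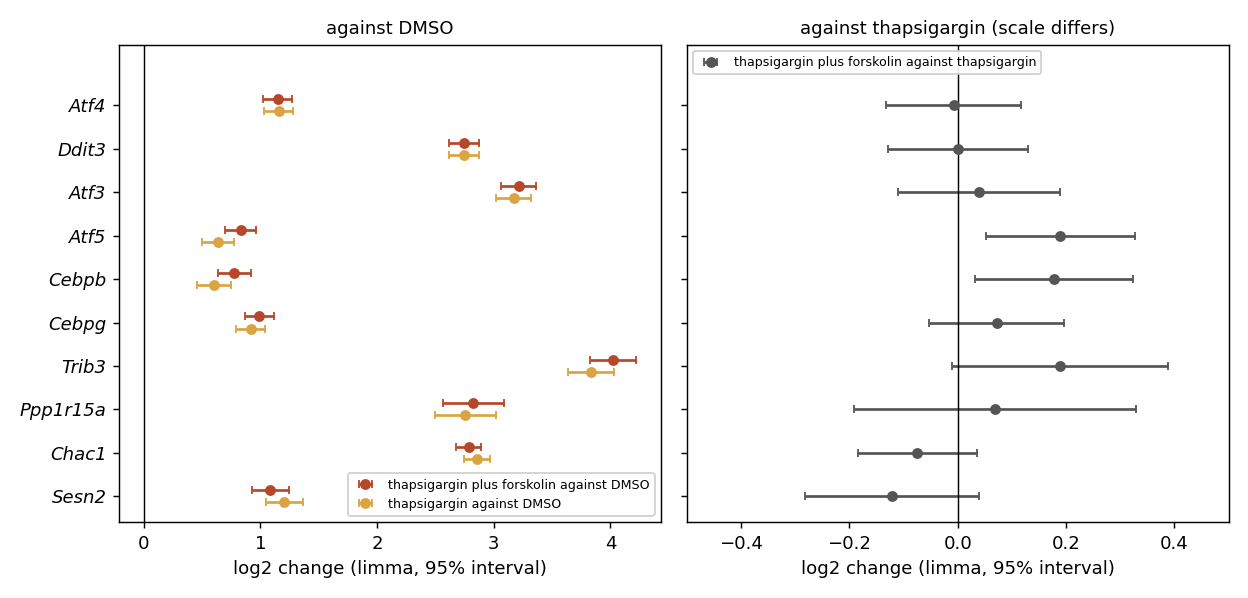
Log2 changes (horizontal axis) of the 10 axis genes with 95% limma intervals, on the left for thapsigargin plus forskolin and for thapsigargin, each against DMSO, and on the right, on an enlarged scale, for thapsigargin plus forskolin against thapsigargin. The intervals on the left all lie above 0, and on the right only those of Atf5 and Cebpb leave 0 out, before adjustment.

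Against DMSO the combined treatment raised all 10 genes as well, with 17.9% of all genes called higher and 16.7% lower. Rises of at least 2-fold were called for 7 of the 10 genes and for 2.57% of all genes. The groups did not overlap for 10 of 10 and for 42.6% of all genes. This comparison shares the DMSO arrays with the first and its treated arrays with the second, so its values are no separate evidence. The log2 changes ran from 0.78 for Cebpb to 4.02 for Trib3, which was 16.3-fold higher, and Ddit3 was again 6.72-fold higher.

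Listed paralogs of the axis genes that lie outside the axis mostly moved the other way with thapsigargin. Of 10 paralogs, 6 fell, 1 rose and 3 were not called, beside 16.9% of all genes called lower and 18.2% higher. Their median log2 change was -0.74, against -0.04 for all genes. The other tribbles genes Trib1 and Trib2 both fell, by 0.84 each on the log2 scale (SE 0.07 and 0.08), beside the rise of Trib3. The other sestrin genes Sesn1 and Sesn3 fell by 0.86 ± 0.12 and 0.63 ± 0.05. Chac2, which encodes an enzyme with slower glutathione breakdown than CHAC1, fell by 1.60 ± 0.06 (limma adjusted p = 4.69e-08). Ppp1r15b, the gene of the constitutive partner of the same phosphatase, was the exception and rose by 0.64 ± 0.07, against 2.76 for Ppp1r15a. Jdp2, a relative of Atf3, differed by 0.05 ± 0.07 (limma adjusted p = 0.617), and Cebpa and Cebpe by -0.23 ± 0.10 and -0.16 ± 0.13. Differences in change between an axis gene and its paralog were not tested.

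Cebpd was the paralog on which the treatments parted. Its mean log2 value was 7.85 ± 0.06 with thapsigargin plus forskolin, 6.31 ± 0.02 with thapsigargin and 7.24 ± 0.03 with DMSO (SD, n = 3). It encodes C/EBPδ, an inflammation-responsive factor, and it fell with thapsigargin (-0.93 ± 0.05, limma adjusted p = 5.77e-07). Added forskolin then raised it 2.9-fold over thapsigargin (1.53 ± 0.05, limma adjusted p = 6.24e-07), and with both agents it was above DMSO by 0.60. The C/EBP genes within the axis, Cebpb and Cebpg, differed by 0.18 and 0.07 in that comparison. Sesn3 was the other paralog called there, higher by 0.33 ± 0.05 (limma adjusted p = 0.00553).

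**Figure D3:**
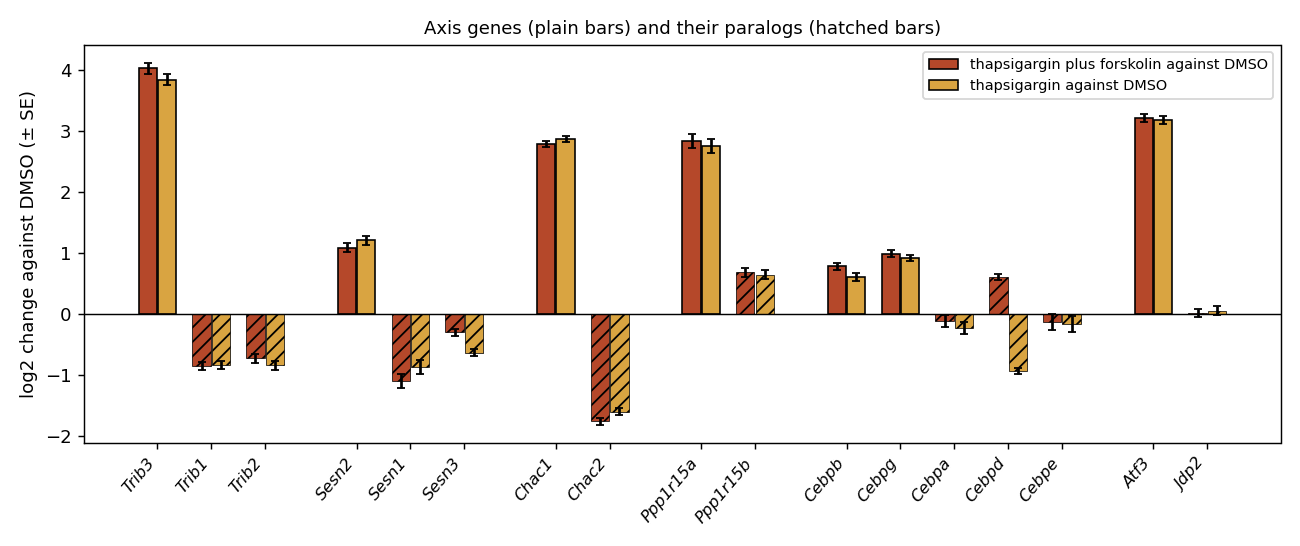
Log2 change against DMSO (bars, with limma standard errors) of axis genes (plain) and their paralogs (hatched), for thapsigargin plus forskolin on the left of each pair and thapsigargin on the right. Most hatched bars point down beside upward plain bars, Ppp1r15b rises in both, and Cebpd has opposite signs in the 2 treatments.

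Lists of further pathway genes place the axis among its inputs, partners and outputs. Beside the counts that follow, 18.2% of all genes were called higher and 16.9% lower with thapsigargin. With forskolin added to thapsigargin these shares were 3.7% and 4.17%. Of 17 measured genes of the eIF2 kinases, eIF2 phosphatase and the exchange factor eIF2B, 9 rose with thapsigargin and 2 fell (median log2 change 0.19). The largest rises were those of Dnajc3, whose product inhibits PERK, at 1.99 ± 0.05, Eif2b3 at 1.27 and the PERK gene Eif2ak3 at 0.86, and the falls were those of the phosphatase gene Ppp1ca at -0.34 and the kinase gene Eif2ak2 at -0.23 (limma adjusted p = 0.0451). After centring on array medians 1 fall in this list was called. With forskolin added, Eif2ak3 alone of this list was called, higher by 0.22 (limma adjusted p = 0.037), and the call was lost when arrays were centred on their medians.

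Among 15 other bZIP factors, the family to which the ATF and C/EBP proteins belong, 3 rose and 6 fell with thapsigargin. Nfil3 rose by 2.27, Nfe2l1 by 0.53 and Atf2 by 0.51. The AP-1 genes Fos and Junb fell by 2.51 and 1.01. Forskolin added to thapsigargin raised 4 of the 15 and lowered none, with Crem, a cAMP-responsive gene, at 0.83, Fosl2 at 0.74 and Jund at 0.37.

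The outputs linked to ATF4 mostly rose with thapsigargin. In the list of amino acid and one-carbon enzymes 12 of 13 measured genes rose and Cbs fell (-1.68), with Aldh1l2 at 4.51, Cth at 3.52 and Aldh18a1 at 2.20 (median 2.005). All 8 measured amino acid transporters rose, led by the cystine carrier gene Slc7a11 at 4.33, Slc1a5 at 2.78 and Slc1a4 at 1.84 (median 1.62). Of 12 genes of tRNA charging 11 rose, with Wars at 2.19, Eprs at 1.79 and Lars at 1.69. Among 10 other stress outputs 7 rose, including Adm2 at 1.48 and Eif4ebp1 at 1.34, and Stc2 fell (-1.20). Genes tied to CHOP changed in both directions: the ER oxidase gene Ero1a rose by 1.55 and Pmaip1 by 0.17, while Bcl2l11, Bbc3 and Bcl2 fell by 0.71, 0.56 and 0.30. Tnfrsf10b was not called (0.12 ± 0.07, limma adjusted p = 0.23). Whether these changes follow from CHOP was not tested. The rise of Pmaip1, which encodes a cell death factor, was not called after a further quantile normalization.

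Forskolin moved several of these outputs slightly downward while no axis gene was called. Compared with thapsigargin alone, Psat1, Psph and Phgdh of serine synthesis fell by 0.34, 0.32 and 0.31 on the log2 scale, and Cbs, of the route from homocysteine to cysteine, rose by 0.58. Slc7a11, Slc7a1 and Slc7a5 fell by 0.50, 0.22 and 0.21. The limma adjusted p was 0.0023 for Slc7a11, but 0.0437 for Slc7a1 and 0.0392 for Slc7a5, near the threshold. With a block for the replicate number fewer transporters were called lower. Stc2, Nupr1 and Ddit4 fell by 0.38, 0.34 and 0.27. None of the 12 tRNA charging genes was called in limma, 2 having an unadjusted p below 0.05. Of the CHOP-linked genes Bcl2l11 and Bcl2 rose by 0.46 and 0.25, and the death receptor gene Tnfrsf10b fell by 0.36. Whether these shifts differ from those of the axis genes was not tested.

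**Figure D4:**
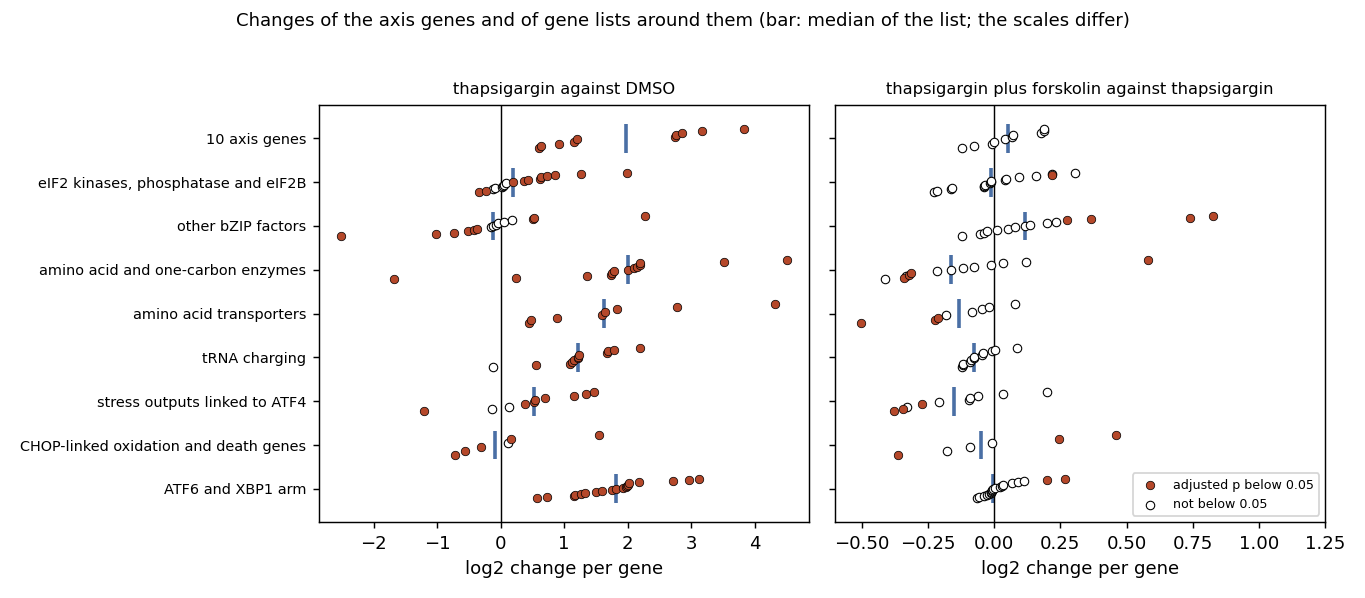
Log2 change of each gene (points, horizontal axis) in the axis and in 8 lists around it, for thapsigargin against DMSO on the left and for thapsigargin plus forskolin against thapsigargin on the right, with filled points for limma adjusted p below 0.05 and a bar at each list's median. The axis, the amino acid lists, tRNA charging and the ATF6 and XBP1 list lie mostly to the right of 0 with thapsigargin, and on the right all axis points are open.

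The ATF6 and XBP1 arm of the ER stress response was set beside the axis. All 19 measured genes of that arm rose with thapsigargin, with Sdf2l1 at 3.13, Creld2 at 2.97 and Dnajb9 at 2.71 (median 1.81, beside 1.98 over the axis). With forskolin added 2 of the 19 rose, Edem1 by 0.27 and the chaperone gene Hspa5 by 0.20, and neither was called after centring on array medians. ERSE was found in 7 of 17 genes of that arm with a window and in 0 of the 10 axis genes. The composite was found in 1 of those 17 (Herpud1), against 3 of 10 in the axis, 5 of 9 in tRNA charging, 4 of 12 in amino acid and one-carbon enzymes, 2 of 6 in the transporters and 3 of 10 in the other stress outputs. It was also found in 1 of 15 genes of the eIF2 list, 1 of 14 other bZIP factors, 1 of 6 paralogs and 0 of 4 CHOP-linked genes. These shares are descriptions, and the windows given do not cover every gene of the lists.

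Some patterns across the 9 arrays were nearly the same as those of Ddit3 and Atf4. Likeness was the root mean square difference, in log2 units over 9 arrays, after each gene was set to its own DMSO mean. Nearest to Ddit3 was another axis gene, Chac1, at 0.0849, followed by Dnajb9 at 0.0933, Slc1a5 at 0.106, Reep6 at 0.127 and 5430416N02Rik at 0.138. Ppp1r15a was the 8th nearest and Atf3 the 23rd. The other members were further off: Trib3 at position 172, Atf4 at 410, Sesn2 at 423, Cebpg at 664, Atf5 at 1108 and Cebpb at 1250. Nearest to Atf4 were Pdia6 at 0.045, Dusp18 at 0.0577, Nars at 0.0593, Sec23b at 0.0618 and Kdelr2 at 0.0621, with Sesn2 the 37th and Cebpg the 254th. Atf5 stood at position 866 from Atf4 and Cebpb at 1026. Ddit3, Ppp1r15a, Chac1, Atf3 and Trib3 stood at positions 20083 to 22004, among the genes least like Atf4. The distance includes the size of a change. These distances are descriptions over arrays that also set the members' changes.

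Of the 20 RefSeq genes next to the members, 17 were measured, and with thapsigargin 5 of them rose, 5 fell and 7 were not called. Over all genes 18.2% were called higher and 16.9% lower. Whether neighbours move with the members was not tested. Both neighbours of Atf4 rose, Mief1 by 0.76 and Rps19bp1 by 0.56, as did Ino80 beside Chac1 (0.95), Nucb1 beside Ppp1r15a (0.72) and Med18 beside Sesn2 (0.55). Pepd beside Cebpg fell by 1.13, Atpif1 beside Sesn2 by 0.72, Plekha4 beside Ppp1r15a by 0.58 and Vrk3 beside Atf5 by 0.36. These neighbours were named after their values were seen. The span of Ddit3 overlaps those of Mars1 and Mbd6, which differed by -0.11 ± 0.06 (limma adjusted p = 0.222) and -0.26 ± 0.07 with thapsigargin. Atf5 overlaps Nup62 and Cebpg overlaps a predicted gene, which were not analysed here. Whether probes of these sets read the overlapping gene was not tested.

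Facts of the whole set of arrays bear on these values as follows. Correlations over all 41345 probe sets were 0.989 to 0.993 within groups and 0.966 to 0.992 between groups, and array medians lay between 5.80 and 5.88. The members lay far above the lower quartiles of the arrays, 4.53 to 4.59, the lowest being Trib3 with DMSO. Markers of the labelled cell type were present in part. Of 12 measured podocyte markers 11 had a DMSO mean above the median of all probe sets. Among them Nphs1 stood at 6.55, Wt1 at 6.80 and Tcf21, close to that median, at 5.88. Ptpro was below it at 5.35. With thapsigargin 7 of the 12 fell and 1 rose, beside 16.9% of all genes called lower and 18.2% higher. The largest falls were those of Plce1 (-3.45), Synpo (-2.52) and Dag1 (-1.35), while Cd2ap rose (0.23). Nphs1 and Tcf21 were not called. The summed podocyte marker level (linear) was 8906 to 9105 with thapsigargin plus forskolin, 9993 to 10252 with thapsigargin and 17608 to 17950 with DMSO. Bright markers such as Dag1 and Actn4, with DMSO means of 12.61 and 11.82, weigh most in this sum. Nphs1, Wt1 and Tcf21 add little to it. Tubular markers fell too, 4 of 10, led by Cdh16 (-3.37) and Aqp1 (-3.24). Their summed level was 1470 to 1510 with thapsigargin plus forskolin, 1322 to 1386 with thapsigargin and 6730 to 6864 with DMSO. Of these 10 markers 8 also exceeded the probe set median with DMSO, with Aqp1 at 11.71 and Cdh16 at 11.16. Passing that median therefore does not single out podocyte genes. Of 5 mesangial, 7 endothelial and 8 leukocyte markers 1 each fell with thapsigargin, namely Pdgfrb, Ehd3 and Csf1r. These counts lie near the 16.9% of all genes called lower. In each of these lists 3 markers exceeded the probe set median with DMSO, among them Ehd3 at 10.36, Csf1r at 7.98 and Cd14 at 7.97. Forskolin added to thapsigargin raised 2 of the 12 podocyte markers, Synpo by 0.55 and Kirrel by 0.37. It lowered 4 of them, Plce1 by 1.29, Podxl by 0.79, Actn4 by 0.46 and Cd2ap by 0.25. Of the other markers it raised Cd14 by 0.87, Csf1r by 0.82, Cdh16 by 0.54 and Pdgfrb by 0.38, and lowered Flt1 by 0.32. Over all genes 3.7% were called higher and 4.17% lower in that comparison. Below the lower quartiles stayed 1 leukocyte marker, Ptprc, 1 endothelial marker, Emcn, and 1 tubular marker, Slc12a1. The Ptprc means were 3.80 with thapsigargin plus forskolin, 3.72 with thapsigargin and 3.78 with DMSO. The part of these shifts in the axis values was not tested, and in bulk RNA fewer cells of a kind and less RNA per cell cannot be told apart.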

How the data were processed

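RNA of 9 single-colour array samples was measured, 3 per group. The deposited values are log2 expression values, 1 per probe set and array, which the authors computed by RMA in the affy package according to the labels (per the submitters' processing notes). Tool versions, the array's annotation and its build are not given in these sources. RMA makes the arrays' distributions alike, so changes are relative to the bulk of genes and a change in total RNA cannot be seen. No scanner output entered the work, background could not be checked, and precision is limited by the number of arrays. Of 41345 probe sets 23521 carry 1 symbol, 1814 several and 16010 none. Per gene the single-symbol probe set with the highest mean over 9 arrays was kept, giving 22180 genes.

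The 3 group means were fitted in limma over all 9 arrays together (limma 3.58.1, R 4.3.3; 6 residual degrees of freedom) with two-sided eBayes contrasts and Benjamini-Hochberg adjustment over all genes tested; intervals are 95% and unadjusted. The procedure was also run on simulated data in which far fewer genes changed than were called here. That run does not test the calls made here. Genes named were all 10 members, all paralogs, and the 5 genes nearest to Ddit3 and Atf4. From each other pathway list came the 3 called genes with the largest change and up to 3 called against its direction. Cell type markers were named outside this rule, some of them for their values. Members and lists were chosen with earlier results of these data known, and lists got no set test. Plots came from matplotlib 3.10.9 (Python 3.11.15). Promoter windows are RefSeq's and were searched on both strands. Alternatives were other fits, scalings, probe set choices, a filter on dim genes, a block for the replicate number, and leaving out arrays singly.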

Additional observations from a re-analysis of the deposited data

How the results depend on the processing

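The 10 axis genes were called higher in both comparisons with DMSO under all 18 alternatives, with adjusted p at most 0.000449, reached by Cebpb. With forskolin added to thapsigargin the count of called members was 0 under all but 2, where it was 1, Atf5 higher: an intensity trend and robust prior (1) and genes above the median level (1). The sign of the near-zero differences turned: for Atf4 to 0.00062 after a further quantile normalization and between -0.039 and 0.028 when single arrays were left out, and for Ddit3 to -0.0060 with array weights, -0.033 after centring on array medians and between -0.044 and 0.029 with single arrays left out. Over all genes, those called lower in that comparison numbered 568 to 1101 when 1 array was left out (586 and 568 without replicates 1 and 3 of thapsigargin alone, and 600 without replicate 2 of the combined treatment), beside 924. Deviations of same-numbered arrays correlated between -0.074 and 0.247, above 0.1 in all 3 pairs of groups for replicate 3 but not for replicates 1 and 2, so the numbers were not taken to pair the arrays. With the replicate block 10, 0 and 10 members were called, and 4085, 770 and 4039 genes were higher. Of 252 list counts recomputed, 15 moved by over 1.5 times, among them, with the block, transporters lower with forskolin (1, beside 3), ATF6 and XBP1 genes higher with forskolin (0, beside 2) and eIF2 list genes lower with thapsigargin (1, beside 2). Background and probe detection could not be checked, which limits statements on dim genes; every axis value lay above the array medians.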
